A study of Mus musculus with 8 samples.

Results

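The genes described here encode the insulin-like growth factors (IGFs), the insulin and IGF receptors and the first proteins that these receptors act on: Igf1, Igf2, Insr, Igf1r, Igf2r, Irs1, Irs2 and Grb10. They were examined for N6-methyladenosine (m6A) peaks in mouse embryonic fibroblasts (MEFs) kept in full medium or starved of nutrients. Members were chosen by gene name, as every entry assigned to 1 of the 8 genes in the 4 peak lists. This gave 69 of 38705 peaks, which merged into 30 of 21168 regions. Of the 8 genes, 7 were represented by a peak and Igf2 was not. Insr was selected on the result itself, because it holds a region called only after starvation. The values of Insr are therefore given as a description and without a test.

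Insulin and IGF1 bind the extracellular parts of the receptor tyrosine kinases encoded by Insr and Igf1r, which then phosphorylate the docking proteins IRS1 and IRS2. These recruit PI3 kinase, whose product activates AKT, the arm of the pathway that restrains autophagy and FOXO transcription factors in fed cells. Fibroblasts are known for answering to IGF1 as a growth and survival factor. m6A is laid down by a METTL3-containing writer complex, mostly in a sequence context that includes GGAC, and readers that bind it can change the stability or translation of an mRNA.

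The MEFs were wild type cells of the C57BL/6 strain, derived from 13.5-day embryos and used at passages 5 to 6. Control cells were left untreated in high glucose medium with serum, and starved cells were held in a nutrient-deprived medium for 2 h. In MeRIP-seq, RNA fragments are pulled down with an antibody against m6A (the IP library) and sequenced beside the same RNA without antibody (the input library). Each condition had 2 IP libraries, each compared by the authors with its own input, for 8 samples in all. The study used these data to ask how m6A on mRNAs differs between fed and starved cells. The study calls the replicates biological, and the labels do not say which cultures they came from.

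The control lists held 10103 and 9871 peaks and the starved lists 9757 and 8974. The depth of the libraries is unknown, because the files give no reads. The absence of a peak is therefore not the absence of m6A, and fewer transcripts, shallower reads and less methylation cannot be told apart where a peak is missing. Fold enrichment (the IP signal of a peak over its local input background) had a higher median over all peaks in both starved lists (14.58 and 14.69) than in both control lists (12.21 and 12.27). The share of peaks with a score of at least 3100, where the score is minus 10 times log10 of the p-value, was 28.5% and 27.8% in the starved lists against 17.0% and 13.2% in the control lists. These differences over all peaks go with the same groups as every comparison below, and their part in it was not tested. As a check of the cell type, 7 of 10 fibroblast marker genes had a peak. The same was true of 2 of 5 epithelial, 1 of 4 blood, 2 of 4 endothelial and 3 of 4 muscle and neural markers, and a peak says only that a transcript was captured, not how much of it there was.

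Exon 2 carried the region for which Insr was selected, and exon 2 of the related receptor gene Igf1r also carried a region, so stretches of both exons are shown. The following are 300 bases of coding sequence from each, on the transcript strand, taken from the RefSeq assembly GRCm38.p6 (the build known as mm10). Capitals mark GGAC, the core of the m6A sequence context. The Insr stretch is chr8:3258388-3258687 on the minus strand and the Igf1r stretch is chr7:68004051-68004350 on the plus strand.
Insr: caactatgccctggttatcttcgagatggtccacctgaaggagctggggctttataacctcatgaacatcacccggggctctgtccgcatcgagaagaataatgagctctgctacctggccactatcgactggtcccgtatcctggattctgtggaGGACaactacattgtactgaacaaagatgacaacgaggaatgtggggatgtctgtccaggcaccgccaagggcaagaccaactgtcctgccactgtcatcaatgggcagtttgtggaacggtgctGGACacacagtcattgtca
Igf1r: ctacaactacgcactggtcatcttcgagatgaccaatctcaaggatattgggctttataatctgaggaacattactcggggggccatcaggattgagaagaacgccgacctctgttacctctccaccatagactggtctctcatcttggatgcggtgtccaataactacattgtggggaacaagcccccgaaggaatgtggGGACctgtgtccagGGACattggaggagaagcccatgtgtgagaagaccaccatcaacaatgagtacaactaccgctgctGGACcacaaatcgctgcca

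Over the whole exons, 384 of 538 aligned bases (71.4%) were identical between the genes, and the longest identical run was 14 bases. Exon 2 of Insr is 552 bases long with 3 matches to GGAC, at bases 14, 404 and 529 counted from the start of the exon. Exon 2 of Igf1r is 546 bases long with 4 matches, at bases 110, 443, 457 and 523. A single pair of matches, at base 529 of Insr and base 523 of Igf1r, fell on aligned positions, and it is the last pair of capitals in the stretches above. GGACT, which contains GGAC and is the form with the preferred next base, occurred at base 110 of the Igf1r exon and was not found in the Insr exon.

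For the docking proteins, which have most of their coding sequence in their first exon, the following 120 bases lie in the coding region that has a peak of every library. The Irs2 bases were under a peak in all 4 libraries, and the Irs1 bases in all but starved replicate 2. They come from chr1:82287661-82287780 on the minus strand for Irs1 and from chr8:11008059-11008178 on the minus strand for Irs2.
Irs1: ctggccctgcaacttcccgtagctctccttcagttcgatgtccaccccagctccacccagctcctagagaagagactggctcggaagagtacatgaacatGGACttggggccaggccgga
Irs2: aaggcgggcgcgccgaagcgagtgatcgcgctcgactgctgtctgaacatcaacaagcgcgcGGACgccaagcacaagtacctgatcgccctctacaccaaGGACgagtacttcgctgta

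Insr, the insulin receptor, held 15 peaks in 8 regions along a transcript of 21 exons and 9355 exonic nt. Without allowance for transcript length, 1.4% of genes with a peak had as many regions or more (the median was 2). Insr had 3, 4, 5 and 3 peaks in control replicates 1 and 2 and starved replicates 1 and 2. Of the 8 regions, 1 was called in all 4 libraries, 1 only in both starved libraries, and 4 in a single library.

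The region called only after starvation (Insr region 2, chr8:3258383-3258947) covered the whole of exon 2, in the coding sequence. Its fold enrichment was 16.55 in starved replicate 1 and 78.54 in starved replicate 2, with scores of 1804.73 and 3100, and neither control library had a peak there. The starved replicates differed from each other by 4.75-fold (mean 47.5 ± 43.8, SD, n = 2). The peak of starved replicate 1 ran from base 19 of the exon to its last base, and that of starved replicate 2 began 13 bases before the exon and also ended at its last base. The first GGAC of the exon, at base 14, thus lay outside the peak of starved replicate 1. Of the 1344 regions within 10% of its exonic length, 48.9% held 3 or more matches to GGAC.

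Over the whole series, 677 regions (3.2%) were called in both starved and neither control library, and 1 of the 30 member regions was, the region on which Insr had been selected. Among the 677, the Insr region ranked 75 by mean fold enrichment. Of these regions, 36.2% had at least its value in starved replicate 1 (median 10.98) and 6.35% had at least its value in starved replicate 2 (median 12.05). A larger ratio between the starved replicates was seen in 14.0% of them.

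The starved-only regions most like it were found by the distance between log2 fold enrichments in the 2 starved libraries. They lay in Med13 (17.15 and 68.03), a subunit of the Mediator kinase module, Ndor1 (15.97 and 91.51), Sema3b (19.8 and 82.19), Atp6v0a2 (13.86 and 84.84), a subunit of the vacuolar proton pump, and Cerk (21.13 and 78.66), the ceramide kinase. Likeness here covers 2 libraries only.

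**Figure D1:**
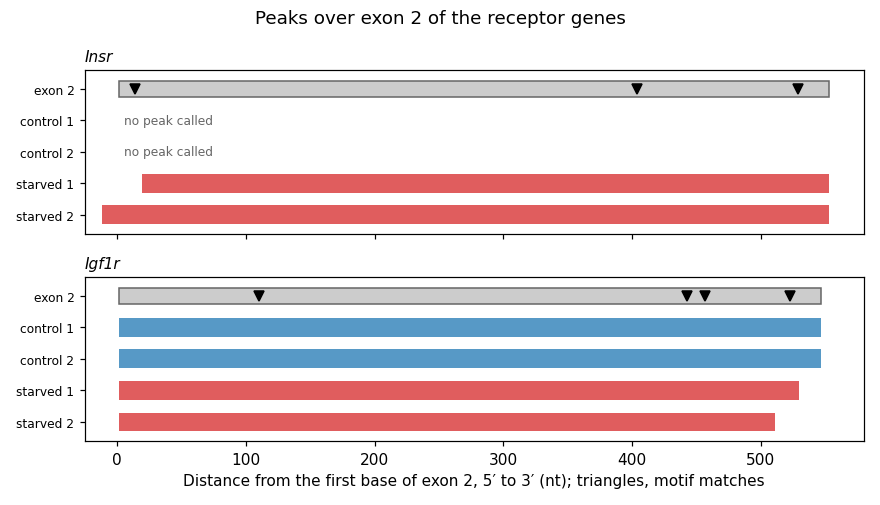
Peaks called over exon 2 of Insr (552 bases) and Igf1r (546 bases) in the 4 IP libraries, by distance from the first base of the exon in nt. Bars span each called peak, with control in blue and starved in red, and triangles mark GGAC on the transcript strand. Insr has bars only in the starved libraries and Igf1r has a bar from the first base in all 4.

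At the other end of the Insr transcript, the region called in all 4 libraries (Insr region 8, chr8:3153306-3154774) lay in the 3′ UTR, with its centre 1629 nt past the stop codon. Control replicates 1 and 2 gave fold enrichments of 15.88 and 12.6, and starved replicates 1 and 2 gave 32.16 and 29.21. Both starved values were above both control values, with means of 14.2 ± 2.32 in control and 30.7 ± 2.09 in starved cells (SD, n = 2 each), a 2.15-fold ratio.

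Around the stop codon, Insr region 6 (chr8:3155261-3156023), centred 27 nt past the stop codon, reached fold enrichments of 20.96 and 10.74 in control replicates 1 and 2 and 34.86 in starved replicate 1. No peak was called there in starved replicate 2. Insr region 1 (chr8:3279041-3279427), with its centre in the 5′ UTR in exon 1, was called in control replicate 2 (19.51) and starved replicate 2 (12.02). It held 5 matches to GGAC, and 5.12% of regions of like length held as many or more.

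The other Insr regions were called once each. Control replicate 1 had a peak in exon 3 (19.34), control replicate 2 in the 3′ UTR at 677 nt past the stop codon (9.23), and starved replicate 1 in exon 8 (33.38) and in exon 11 (16.83). None of these regions recurred in another library.

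Igf1r, the IGF1 receptor, was the member with the most regions, 9 from 22 peaks, on 11409 exonic nt. Without allowance for transcript length, 0.798% of genes with a peak had as many regions or more. The Igf1r peaks per library were even, at 5, 6, 5 and 6. Fold enrichment was lower than in Insr, with a median of 6.75 and a range from 3.13 to 22.55, against a median of 19.34 and a range from 9.23 to 78.54 over the Insr peaks. These are ratios of IP to the input of the same transcript, and they do not measure the amount of either mRNA.

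Exon 2 of Igf1r (region 1, chr7:68003810-68004355) was called in all 4 libraries, with fold enrichments of 4.87 and 3.13 in fed MEFs and 8.01 and 7.02 in starved MEFs. Both starved values were above both control values, and the peaks of all 4 libraries began at the first base of the exon. The difference in log2 fold enrichment, starved minus control, was 0.94 ± 0.69 (SE), which did not pass the test (limma, adjusted p 0.702, n = 2 per group). The peak of starved replicate 2 ended at base 510, before the last GGAC of the exon at base 523, whereas the control peaks ended at the last base. Exon 2 was called in both starved libraries for each receptor gene and in both control libraries for Igf1r alone. Insr was selected for having no control peak there, so this contrast does not test a difference between the receptors. The control values of Igf1r exon 2 were also below the lowest value of any Insr peak, 9.23. The peaks over Igf1r exon 2 had false discovery rates of 20.48% and 48.32% in fed MEFs, against 17.88% and 17.09% in starved MEFs, so with a limit of 20% this region, too, was called only after starvation. The rates are on each library's own scale, and the scores of replicate 1 were close (841.36 in control and 859.17 in starved cells). With that limit, 4.26% of all regions of the series and 3 of 18 member regions were called only after starvation. The 3 include the Insr exon 2 region, which was selected for this pattern.

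Igf1r region 6 (chr7:68226020-68227057) had its centre 137 nt past the stop codon, in the long 3′ UTR, and its peak in every library spanned the stop codon. It was enriched 3.61-fold and 5.4-fold in control replicates 1 and 2, and 9.78-fold and 9.02-fold in the starved replicates. The starved values were again above the control values, with a log2 difference of 1.09 ± 0.69 (SE; limma, adjusted p 0.651). Region 9 (chr7:68232433-68232927), whose centre lay 6279 nt past the stop codon, gave 6.48 and 9.98 in fed cells, then 20.79 and 5.04 after starvation. These values overlapped between the groups, and the log2 difference was 0.35 ± 0.85 (SE; limma, adjusted p 0.912). Without starved replicate 1 it turned to -0.67.

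The remaining Igf1r regions varied from library to library. Region 8 in the 3′ UTR was called in both control libraries (6.01 and 6.13) and in starved replicate 2 (11.2). Region 3 in exon 6 was called in control replicate 1 (5.16) and starved replicate 2 (22.55). Starved replicate 1 alone had peaks in exon 3 (12.75) and exon 8 (5.05), starved replicate 2 alone in exon 16 (8.03), and control replicate 2 alone in the 3′ UTR at 2181 nt past the stop codon (8.69). That last region held no GGAC in 903 bases, where 96.7% of regions of like length held at least 1.

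Igf2r encodes the mannose 6-phosphate receptor, which binds IGF2 and carries it to lysosomes and has no kinase domain. It had 1, 2, 1 and 1 peaks, all of low fold enrichment, from 3.16 to 6.95. Region 1 in exon 34 (chr17:12698086-12698342) was called in both control libraries (3.83 and 3.29) and in neither starved library. It held 4 matches to GGAC, and 5.1% of regions of like length held as many or more. Region 2 in exon 40 was called in control replicate 2 (6.95) and starved replicate 1 (3.16), the latter with a score of 59.61, the lowest of all member peaks. Region 3, centred in the 3′ UTR, came from starved replicate 2 alone (4.89). With 48 exons and 7449 nt of coding sequence, the longest of the members, Igf2r had fewer regions than either tyrosine kinase receptor.

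**Figure D2:**
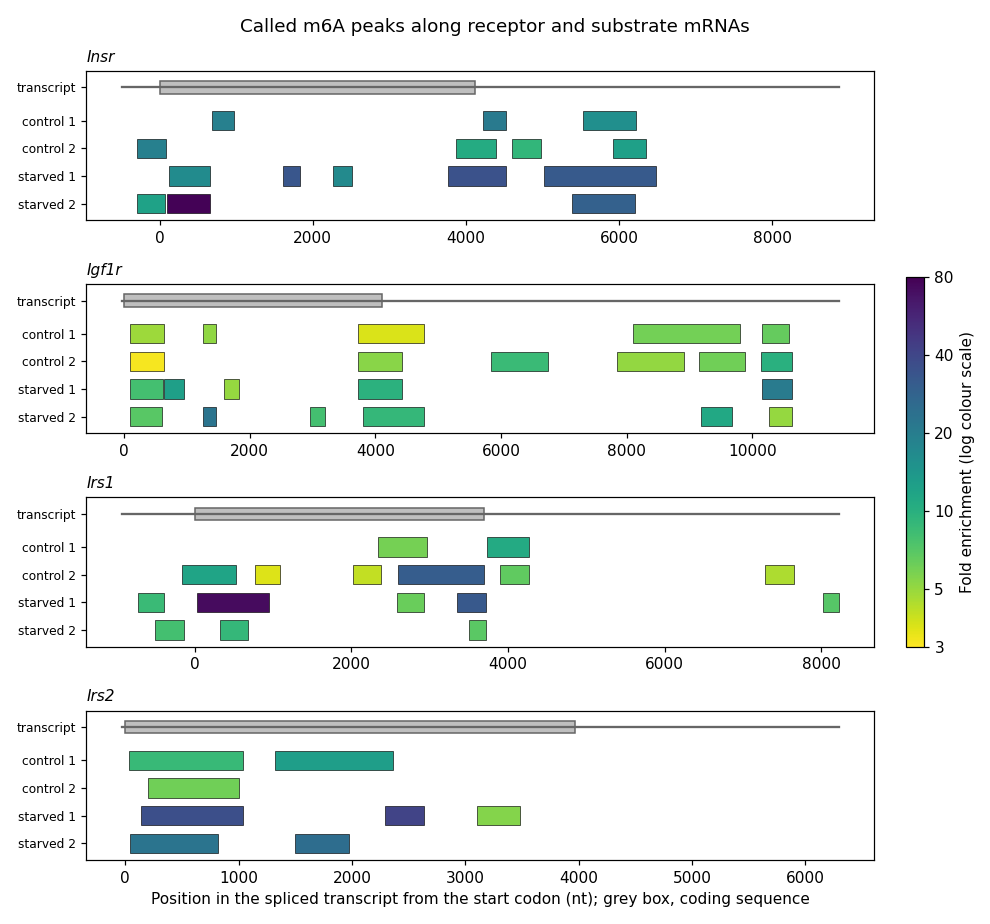
Peaks called in each IP library along the spliced transcripts of Insr, Igf1r, Irs1 and Irs2, by position from the start codon in nt, with the coding sequence as a grey box and fold enrichment as colour on a log scale. In Insr the darkest bar is the exon 2 peak of starved replicate 2 (78.54). Igf1r has pale bars over exon 2 in every library (3.13 to 8.01).

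Irs2, a docking protein, had 2, 1, 3 and 2 peaks in 3 regions, all in its coding sequence. Region 1, at the start of the coding sequence (chr8:11007390-11008401), was enriched 8.79-fold and 6.15-fold in control replicates 1 and 2, against 36.31-fold and 22.66-fold in starved replicates 1 and 2. The groups did not overlap, and the ratio of means was 3.95. The log2 difference was 1.96 ± 0.70 (SE), the largest among the member regions called in all 4 libraries, and 3.41% of all regions tested had a larger one. It did not pass the test (limma, adjusted p 0.470). Its false discovery rates were 32.78% and 30.88% in fed MEFs, against 10.11% and 10.46% in starved MEFs, so with a limit of 20% it was left with peaks in the starved lists alone. Region 2 (chr8:11005800-11007108) had 12.9 in control replicate 1, no peak in control replicate 2, and then 41.33 and 25.16 after starvation. Both starved values were above the single control value, but the starved peaks did not overlap each other. Region 3 was called in starved replicate 1 alone (5.53).

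Irs1, the other docking protein, had 2, 6, 5 and 3 peaks in 5 regions. Its coding region called in all 4 libraries (region 2, chr1:82286777-82288465) was enriched 5.97-fold and 30.62-fold in control replicates 1 and 2, and 32.21-fold and 6.96-fold in starved replicates 1 and 2. These values do not come from 1 site, since the region is a chain of peaks. The control replicate 1 peak did not overlap the highest peaks of the starved libraries, and the starved replicate 1 peak that it did overlap had 6.32. Control replicate 2 and starved replicate 1 were high and the other libraries low, and the log2 difference was 0.15 ± 1.03 (SE; limma, adjusted p 0.975). It was -1.03 without control replicate 1 and -0.96 without starved replicate 1, so the sign rested on single libraries. Region 1, at the 5′ end of the coding sequence (chr1:82289407-82291211), had no peak in control replicate 1, 11.74 in control replicate 2, 72.55 in starved replicate 1 and 9.01 in starved replicate 2. The starved replicates differed by 8.05-fold. Region 3 in the 3′ UTR (chr1:82237049-82237583) was called in both control libraries (10.91 and 6.73) and in neither starved library. Another 2 regions of the 3′ UTR came from 1 library each, control replicate 2 (4.5) and starved replicate 1 (7.16).

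Grb10 encodes an adaptor that binds the activated receptors and dampens their signal. Its only region, centred in the 3′ UTR (chr11:11930499-11933609), was called in both control libraries (3.14 and 7.99) and in neither starved library. It was the only member with a peak in both control lists and in neither starved list, a pattern seen in 4.56% of genes with a peak. Among the ligands, Igf1 had 1 peak, in the 3′ UTR in control replicate 1 (21.06), over 200 bases with no GGAC, and Igf2 had none by gene name or by overlap with its exons.

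**Figure D3:**
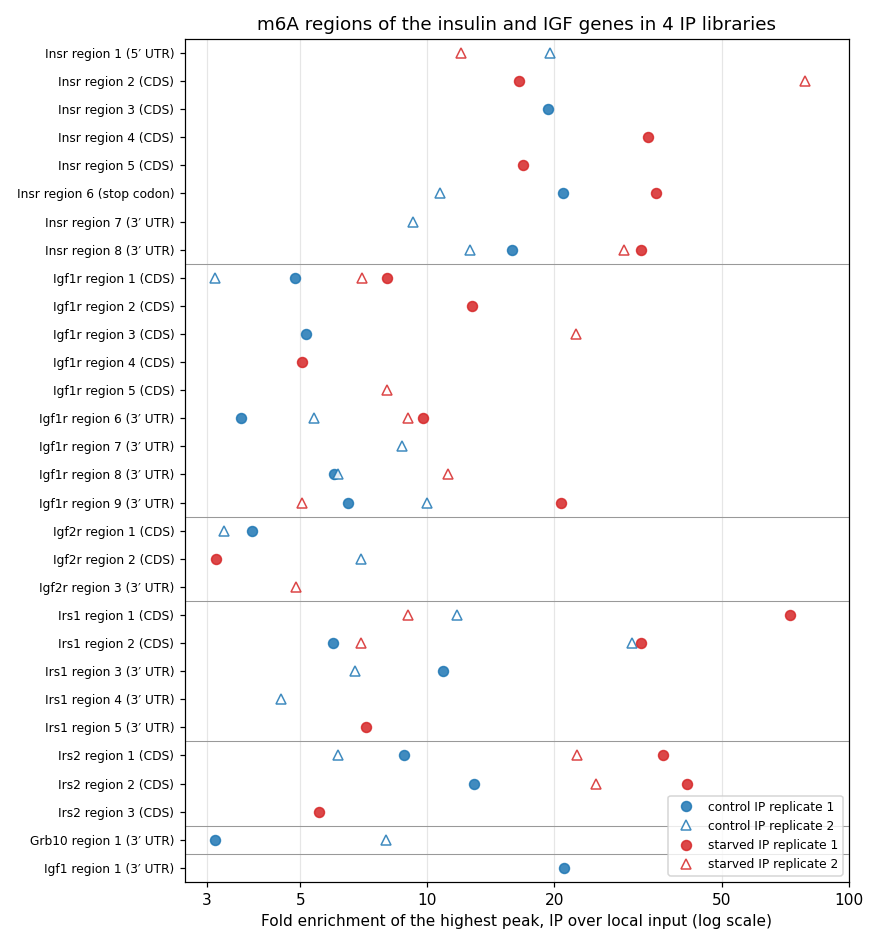
Fold enrichment of the highest peak (IP over local input, log scale) at each of the 30 member regions in each IP library, with control in blue and starved in red, replicate 1 filled and replicate 2 open. A missing symbol means that no peak was called. In Irs2 region 1 the starved symbols (36.31 and 22.66) lie to the right of the control symbols (8.79 and 6.15), and in Irs1 region 2 the colours are mixed.

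Over the whole group, the libraries held 15, 20, 19 and 15 member peaks, a difference in means of -0.5 peaks between starved and control. The sign of this difference was not stable, at 2.0 with fold enrichment of at least 4 and from -3.0 to 2.0 when 1 library was left out. For the 6 members other than Insr with a peak, two-sided exact permutation p-values for peaks per gene ran from 0.33 to 1.0, with 0.33 as the smallest that 2 libraries against 2 allow. Peaks were found in all 4 libraries for 5 of the 7 members with a peak (Insr, Igf1r, Igf2r, Irs1 and Irs2), and for 29.2% of all genes with a peak. No allowance was made for the number of regions per gene, 8 in Insr and 9 in Igf1r against a median of 2. In Igf2r no single region was called in all 4 libraries. Of the 30 member regions, 6 were called in all 4 libraries, against 10.7% of all regions, and 13 (43.3%) in a single library, against 56.2% of all regions. Both control and neither starved library had a peak at 3 member regions (in Irs1, Grb10 and Igf2r), against 4.15% of all regions. Of those 3, only the Irs1 region had at least 4-fold enrichment in both control libraries. These counts are small, and none of them was tested over the list.

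At the 6 regions called in all 4 libraries, both starved values were above both control values in 4 (Insr region 8, Igf1r regions 1 and 6, and Irs2 region 1) and below them in 0. Over all 2257 such regions, 22.9% lay above and 18% lay below. Leaving out Insr, it was 3 of 5, and the 3 came from 2 genes. The median log2 difference was 1.02 over the 6 and 0.104 over all 2257. The 6 include Insr region 8, and the middle of the other 5 values was 0.94, at Igf1r region 1. No region of the series passed an adjusted p of 0.05 in limma (0% of 2257, lowest adjusted p 0.0595), while 109 were higher and 83 lower at an unadjusted p under 0.05, and 77 higher and 125 lower with median centring of each library. With this centring the differences were 0.90 for Insr region 8, 0.73 and 0.88 for Igf1r regions 1 and 6, and 1.75 for Irs2 region 1. Irs1 region 2 turned from 0.15 to -0.065 under this scaling.

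**Figure D4:**
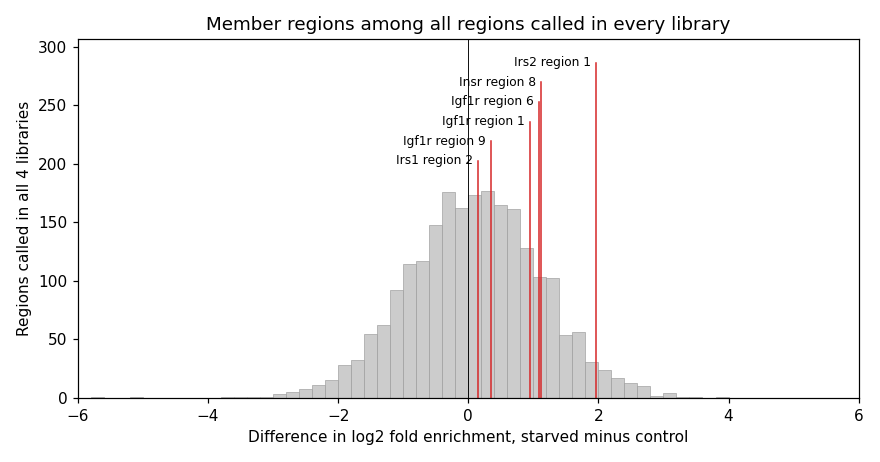
Differences in log2 fold enrichment (starved minus control means) at the 2257 regions called in all 4 IP libraries, as a histogram, with red lines at the 6 member regions. All 6 lines lie above 0, from 0.15 (Irs1 region 2, which falls to -0.065 with median centring) to 1.96 (Irs2 region 1).

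By position, 16 of the 30 member regions (53.3%) had their centre in the coding sequence, 12 in the 3′ UTR, 1 (3.33%) in the 5′ UTR and 1 (3.33%) within 100 nt of the stop codon. Of the 18837 regions of the series placed on a coding transcript, 47.5% lay in the coding sequence, 35.9% in the 3′ UTR, 5.23% in the 5′ UTR and 11.3% around the stop codon. Peaks in Igf1r region 6, Igf2r region 3, Irs1 region 2 and Grb10 region 1, all centred elsewhere, also covered the stop codon. Such cover was not counted over all regions. GGAC, sought on the transcript strand only, was present in 27 member regions (90.0%) and 77.4% of all regions, and GGACT in 53.3% and 41.5%. Member regions were longer (median 441 against 361 bp). Per kb of exonic sequence there were 4.43 matches to GGAC in the members and 4.75 over all regions. The regions without GGAC were the single-library regions of Igf1 and Igf1r named above and that of Irs1 in starved replicate 1.

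Among 12 genes for IGF binding proteins and their processing, 8 had a peak, 2 of them in all 4 libraries. Of the 25 regions of this list, 0 were called only after starvation and 1 only in the control libraries, where all regions gave 3.2% and 4.15%. The 1 region lay in the coding sequence of Igfbp4 (26.29 and 29.75), which encodes a protein that sequesters IGFs. Pappa, a protease that cleaves IGFBP4, had the most regions in the list, 9. Its 3′ UTR region called in all 4 libraries was enriched 40.12-fold and 15.4-fold in fed cells and 6.16-fold and 2.65-fold after starvation. Both starved values were below both control values.

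Among 19 genes for related receptors, insulins, adaptors and phosphatases, 11 had a peak. Of its 30 regions, 2 were called only after starvation, both in 3′ UTRs, and 0 only in control, beside 3.2% and 4.15% of all regions. They were in Cbl (24.61 and 14.58), a ubiquitin ligase that acts on receptor tyrosine kinases, and in Ptpn11 (7.84 and 6.62), the phosphatase SHP2. Gab1, a docking protein, had the most regions, 5.

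Downstream, 13 of 16 genes of PI3 kinase and AKT signaling had a peak. Of their 36 regions, 1 was called only after starvation and 3 only in control, beside 3.2% and 4.15% of all regions. The control-only regions included those in the 3′ UTR of Pik3cb (21.31 and 12.03), a catalytic subunit, and in Gsk3b (4.02 and 6.85), a kinase inhibited by AKT. Pik3ca, another catalytic subunit, had the most regions, 6. Over all 2257 regions called in all 4 libraries, 22.9% had both starved values above both control values and 18% had them below. Among the members it was 4 of 6 above and 0 below, and 3 of 5 above without the selected gene Insr. Of the 6 such regions of these 3 lists, 1 had them above and 3 had them below. The lower ones were in Pappa, in the coding sequence of Sos1 (458.63 and 668.96 in control replicates, 201.66 and 436.18 in starved ones), a RAS exchange factor, and in the 3′ UTR of Pik3r1 (222.39 and 133.61, against 64.9 and 102.2), a regulatory subunit. The higher one was at the stop codon of Pik3ca (21.94 and 6.86, against 42.7 and 23.81). The difference between the lists and the members was not tested. Across these 3 lists, limma called 0 of the 6 regions found in all 4 libraries (1 lower, in Pappa, and 0 higher at an unadjusted p under 0.05).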

How the data were processed

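Per the labels and the study's methods, poly(A) RNA was immunoprecipitated with an m6A antibody, and directional libraries were sequenced from IP and input. The submitters' processing notes and the methods name mm10, HISAT2 2.0.4 and MACS2. The authors called peaks per IP library against its own input and kept those over mRNA exons. The column names of the lists are those of an earlier MACS series, so the version is uncertain. The fold enrichment of a peak is the deposited ratio of IP to local input, the deposited score is 10 times the negative log10 of its p-value, and the false discovery rate is the authors' percent. A table with the authors' own comparison of the groups (fold changes and p-values) was not used.

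Samples were grouped by their labels, giving 4 groups of 2 (control and starved, IP and input). The members and gene lists were chosen with earlier results of these data known. The members were all named, together with genes of the wider lists that had a region called in both libraries of 1 group only, the gene with most regions in each list, and the 5 regions most like the selected Insr region. A gene of the wider lists that met this rule is not reported here. Peaks sharing at least 1 bp were merged into regions, and the highest fold enrichment per library was kept. Regions were placed by their centre on the longest coding transcript of GENCODE M21, with a stop codon window of 100 nt on either side. Sequences came from RefSeq GRCm38.p6. Log2 fold enrichment at regions called in all 4 libraries was tested with limma 3.58.1 (R 4.3.3) and Benjamini-Hochberg adjustment over all of them at 0.05, after a check on simulated data. Other steps used Python 3.11.15, pandas 2.3.3 and biopython 1.88. Alternatives were an overlap of 50 bp, fold enrichment of at least 4, a false discovery rate under 20%, 8974 peaks per library, genes by exon overlap, the mean of peaks, median centring, a replicate block and leaving out each library.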

Additional observations from a re-analysis of the deposited data

How the results depend on the processing

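The Insr exon 2 region, selected for being called only after starvation, kept that pattern under every alternative run. None of these alternatives could add a control peak there, so they do not test the pattern. With a starved replicate left out, it rested on 1 starved library. The number of member regions with that pattern was 1 and rose to 2 with an overlap of at least 50 bp (a second in Irs1) and to 3 with a false discovery rate under 20% (also in Igf1r and Irs2; 4.26% of all regions), and it ran from 1 to 8 when 1 library was left out. The number called only in control libraries went from 3 to 1 with fold enrichment of at least 4, to 1 with an equal number of peaks, to 0 with a false discovery rate under 20%, and from 4 to 8 when 1 library was left out. Regions called in all 4 libraries went from 6 to 1, and the difference in member peaks from -0.5 to 4.5, with a false discovery rate under 20%. That difference was also 2.0 with fold enrichment of at least 4, 1.0 with an equal number of peaks and -3.0 to 2.0 when 1 library was left out. Over all regions limma called 0, and 2 with fold enrichment of at least 4, with an equal number of peaks, with the mean of peaks or with median centring, and 1 with a false discovery rate under 20% (all lower). The labels do not say whether replicates of the same number were paired across conditions. The correlation of replicate differences was -0.0173 over 2257 regions, which cannot settle the design. With a replicate block limma called 7 regions (2 higher and 5 lower), none of them a member region (adjusted p from 0.356 to 0.973). With 1 library left out, the log2 difference ran from -0.67 (without starved replicate 1) to 1.37 at Igf1r region 9. It ran from -1.03 (without control replicate 1; -0.96 without starved replicate 1) to 1.25 at Irs1 region 2, which was at -0.065 with median centring. The causes were not tested. The other 38 values of tested single regions under an alternative kept their direction and side of the threshold, and the 9 of Insr region 8, not tested, kept their direction. Igf1r regions 1 and 6 gave no value with fold enrichment of at least 4, nor Irs1 region 2 without control replicate 2. Depth, not given in the files, limits what the absence of a peak shows.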
